A study of Mus musculus with 3 samples.

Results

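Sodium and calcium pump subunits are described here in area CA1 of the mouse hippocampus. The 7 genes encode the β subunits of the Na,K-ATPase (Atp1b1, Atp1b2 and Atp1b3), the SERCA pumps of the endoplasmic reticulum (Atp2a2 and Atp2a3) and the PMCA pumps of the plasma membrane (Atp2b1 and Atp2b2). Their probe sets were those that the platform annotation assigns to exactly 1 gene. This gave 10 of 10833 named probe sets and 6 of 8251 named genes. Atp2b1 had no probe set under its name and was not analysed here. The RNA came from young male C57BL/6J mice, an inbred strain, after contextual fear conditioning, in which a place comes to be paired with foot shock. A shock of 0.5 mA for 1 s followed 2 min in a new context, the cycle was run 3 times, the mice went back to the home cage after 1 min, and RNA was taken 6 h after the last shock. All 3 arrays belonged to this 1 group, so the values describe CA1 at that time and the spread between arrays, and no effect of conditioning was estimated. Whether each array measured 1 animal or a pool is not stated, and the spread, with any p-value drawn from it, may be technical.

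The Na,K-ATPase exports sodium and imports potassium at the cost of ATP, and restores the ion gradients that neurons spend on synaptic and action potentials. Its β subunit is needed for folding and delivery of the pump to the cell surface, and small FXYD proteins tune its kinetics. SERCA pumps load calcium into the endoplasmic reticulum, and PMCA pumps, which calmodulin activates, expel it from the cell. The β subunits are accessory chains that cross the membrane once, whereas SERCA and PMCA proteins are complete pumps that cross it many times.

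Promoters were looked up in the RefSeq table of GRCm38.p6, which held 9 start sites of 5 of the 7 genes, Atp1b1, Atp1b3, Atp2a3, Atp2b1 and Atp2b2. The promoters of Atp1b1 (chr1:164458306-164458605, minus strand) and of the outer start site of Atp1b3 (chr9:96364382-96364681, minus strand) are shown because the measured probe sets of these β subunits ranked the arrays in the same order. Each runs from 250 bases before to 50 bases after the start site, 5′ to 3′ on the gene's strand. Capitals mark every match, on either strand, to the GC box GGGCGG, the CCAAT box CCAAT and the TATA-like run TATATA.
Atp1b1: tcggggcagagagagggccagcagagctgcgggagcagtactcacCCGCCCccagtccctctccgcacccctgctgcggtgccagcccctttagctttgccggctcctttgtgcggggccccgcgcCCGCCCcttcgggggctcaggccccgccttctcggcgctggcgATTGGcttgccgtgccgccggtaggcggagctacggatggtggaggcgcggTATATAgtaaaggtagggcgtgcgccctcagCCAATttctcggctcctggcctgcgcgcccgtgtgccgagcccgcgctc
Atp1b3: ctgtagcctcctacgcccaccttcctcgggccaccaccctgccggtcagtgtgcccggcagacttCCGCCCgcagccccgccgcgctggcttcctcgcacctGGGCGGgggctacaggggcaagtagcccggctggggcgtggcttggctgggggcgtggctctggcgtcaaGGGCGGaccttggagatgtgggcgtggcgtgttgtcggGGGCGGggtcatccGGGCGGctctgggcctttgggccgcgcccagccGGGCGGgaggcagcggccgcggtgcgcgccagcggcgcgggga
The Atp1b1 window held 1 TATA-like run starting 30 bases before the start site, 2 GC boxes and 2 CCAAT boxes, and 71.0% of its bases were G or C. The Atp1b3 window held 6 GC boxes, 0 CCAAT boxes and 0 TATA-like runs, and 76.0% of its bases were G or C. The window of the inner Atp1b3 start site (chr9:96363666-96363965, minus strand), not printed, held 0 matches to any of the 3 motifs. Among 32851 promoter windows of this length, 35.7% held a GC box, 37.4% a CCAAT box and 5.67% a TATA-like run. In these letters the windows differ, and the matches are a description of the sequence only.

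Every one of the 6 genes with a probe set had 1 that lay above threshold on all 3 arrays. The threshold was a signal of 175, the median of all deposited values, and stands in for a detection call. In all, 6 of the 10 probe sets passed on each array, beside 43.9% of the 12422 probe sets that are not array controls, and the other 4 were under threshold on each array. Several probe sets per gene make a pass easier, and the share of all genes with a passing probe set was not computed. Signals are given as deposited, on a linear scale, as mean ± SD over n = 3 arrays. Brightness depends on the probes, so the signals of different probe sets do not rank the transcripts.

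**Figure D1:**
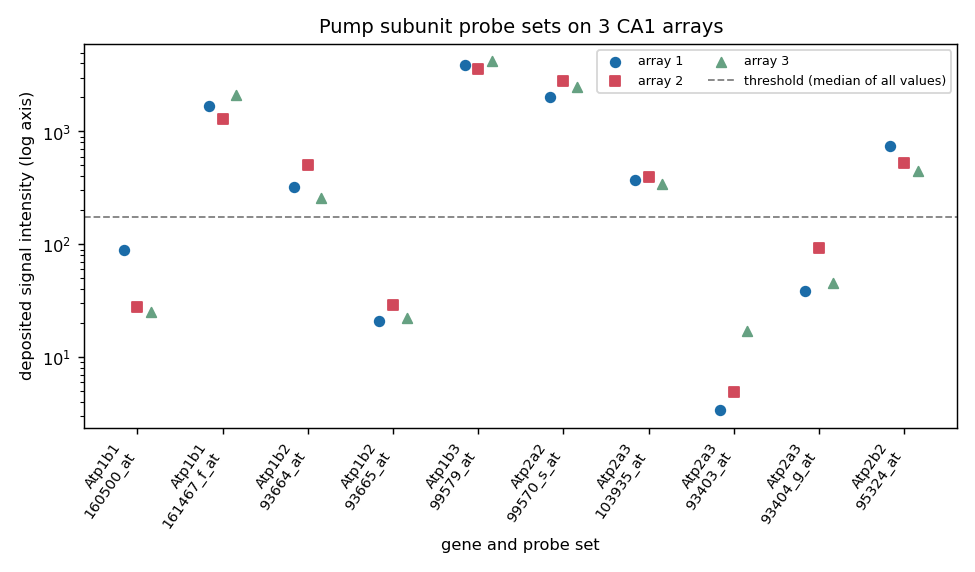
Deposited signal intensity (log axis) of the 10 probe sets of the pump subunit genes on arrays 1, 2 and 3, with each point 1 array and the dashed line the threshold of 175. For each gene, 1 probe set sits above the line on every array, and the other probe sets of Atp1b1, Atp1b2 and Atp2a3 sit below it on every array.

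Among the β subunits, Atp1b3, which forms pumps in many tissues, gave the steadiest deposited signal. Its probe set 99579_at gave 3895, 3574 and 4173 on arrays 1, 2 and 3, a mean of 3881 ± 300. Array 3 was highest and array 2 lowest, 1.17-fold apart. Atp1b1, the main β chain of neurons, gave 1688, 1290.5 and 2101 with probe set 161467_f_at, a mean of 1693 ± 405. Again array 3 was highest and array 2 lowest, here 1.63-fold apart. Atp1b2, first described as the adhesion molecule on glia, gave 320.4, 507 and 258 with probe set 93664_at, a mean of 362 ± 129.6. For this subunit array 2 was highest and array 3 lowest, 1.97-fold apart.

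The other β probe sets did not share these levels. Probe set 160500_at of Atp1b1 gave 88.8, 27.6 and 25.1, under threshold on each array, so its array order is not read. Probe set 93665_at of Atp1b2 gave 21.1, 29.2 and 22.4. For comparison, the brightest control probe set for bacterial transcripts gave 54.1, 115 and 55.6 on the 3 arrays, so that only the array 1 signal of 160500_at exceeded it. The levels of Atp1b1 therefore rest on a probe set of the _f_ class, which by the platform's naming convention can also bind related sequences, and for which the annotation lists no accession.

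Both SERCA genes stayed within 1.37-fold between arrays in the deposited signal. Atp2a2, the SERCA form found in most cells including neurons, gave 2023, 2774 and 2478 with probe set 99570_s_at, a mean of 2425 ± 379. Array 1 was lowest and array 2 highest, 1.37-fold apart. The _s_ class marks probes shared by several transcripts, so the splice forms SERCA2a and SERCA2b were not told apart. Atp2a3, known from blood cells, endothelium and cerebellar Purkinje cells, gave 371, 393 and 342.5 with probe set 103935_at, a mean of 369 ± 25.4. Its arrays were within 1.15-fold of each other, in the order 2, 1 and 3.

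Both other probe sets of Atp2a3 were under threshold on each array. Probe set 93403_at gave 3.40, 4.90 and 17.0, and 93404_g_at, drawn from the same accession, gave 38.7, 92.7 and 45.3. These stayed below the brightest bacterial control of the same array, and the Atp2a3 signal thus rests on 103935_at, a probe set drawn from an expressed sequence tag. Here and below, each marker gene was taken at its brightest probe set, which favours passing. Of the endothelial markers, 1 of 5, Cldn5, was above threshold on all arrays, and the summed signal of the list was 657, 630.3 and 1001. Of the blood and platelet markers with a probe set, 1 of 4 was, the haemoglobin gene Hba-a1, with list sums of 2565, 2391 and 2444, while the platelet gene Pf4 gave 16.1, 17.4 and 80.6. Neither list sum followed the order of Atp2a3. The sums of the astrocyte list and of the choroid plexus and ependyma list, given below, did. The part of any of these cells in the Atp2a3 signal was not tested. In bulk tissue, fewer cells of a type and less RNA per cell cannot be told apart.

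Of the PMCA pumps, Atp2b2, a fast form enriched in neurons and in hair cells of the inner ear, was measured with 95324_at at 743, 527 and 444, a mean of 572 ± 155. Array 1 was highest and array 3 lowest, 1.67-fold apart. None of the other measured pump subunits showed this order, which was that of 13.6% of all measured probe sets.

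Split probe sets are common on this array. All 3 of the genes with several probe sets (Atp1b1, Atp1b2 and Atp2a3) had both a probe set above threshold on every array and another under it on every array. The same held for 736 of the 2073 genes with several probe sets on the whole array, or 35.5%. With 3 genes, this count says little about pump subunits as such.

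To compare the spread, arrays were scaled to a common median and signals log2-transformed with a floor of 47.5, the 25th percentile of all values. The SD of log2 signal was 0.48 for Atp1b2, 0.38 for Atp1b1, 0.36 for Atp2b2, 0.23 for Atp2a2, 0.14 for Atp1b3 and 0.07 for Atp2a3. Of all 6218 measured probe sets, those with a mean signal above 175, 15.1% had a larger SD than Atp1b2 and 92.9% a larger SD than Atp2a3. The median SD of the 6 was 0.30, beside 0.25 over all measured probe sets, but without array 1 it was 0.17, beside 0.24. It was 0.21, beside 0.16, without array 2, and 0.30, beside 0.22, without array 3. A log2 range above 1, or 2-fold between the highest and lowest array, was reached by 0 of the 6, beside 12.1% of all measured probe sets, and the widest was 0.93 for Atp1b2. Leaving out the highest or lowest array narrows a range by construction. Most of the range came from array 2 for Atp1b2, and from array 1 for Atp2b2 and Atp2a2. For Atp1b1, Atp1b3 and Atp2a3, arrays 2 and 3 lay on either side of array 1. Without array 2 the range was 0.27 for Atp1b2, 0.36 for Atp1b1, 0.15 for Atp1b3 and 0.07 for Atp2a3. Without array 1 it was 0.20 for Atp2b2 and 0.11 for Atp2a2, against 0.70 and 0.45 with all 3. Without array 3 it was 0.39 for Atp1b1, 0.13 for Atp1b3 and 0.08 for Atp2a3, against 0.75, 0.27 and 0.15 with all 3.

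**Figure D2:**
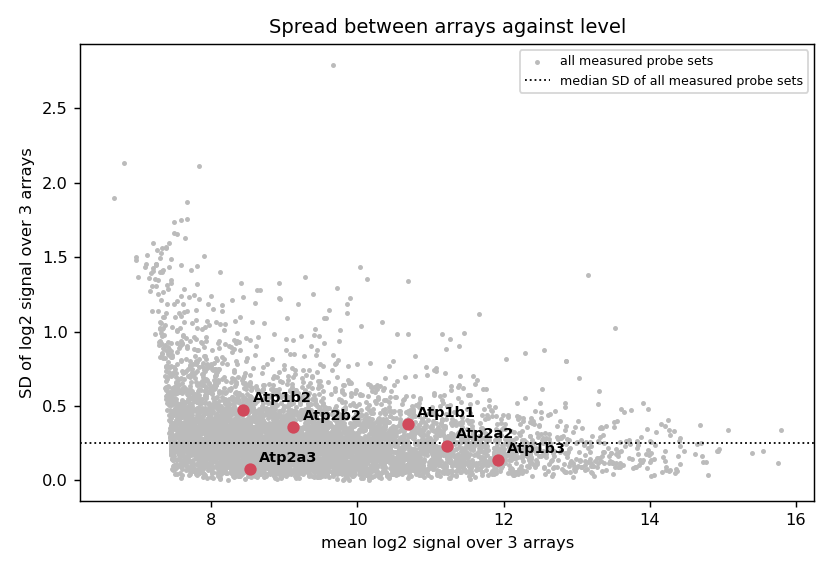
SD of log2 signal over the 3 arrays (vertical axis) against mean log2 signal (horizontal axis), with 1 grey point for each of 6218 measured probe sets, the dotted line at their median SD of 0.25, and the pump subunits in red. Atp1b2, Atp1b1 and Atp2b2 lie above the line, and Atp2a2, Atp1b3 and Atp2a3 below it.

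The limma variance test asks whether a probe set differed between arrays more than others of its level. It called 0 of the 6 pump probe sets at an adjusted p of 0.05, beside 0.0161% of all measured probe sets. At an unadjusted p under 0.05 there were also 0 of 6, beside 5.21% overall. The limma p was 0.160 for Atp1b1, 0.169 for Atp1b2 and 0.254 for Atp2b2 before adjustment, and 0.971, 0.971 and 0.988 after it over all measured probe sets. For Atp2a2, Atp1b3 and Atp2a3 the adjusted limma p was 0.988, 0.988 and 0.998. The differences between arrays described above were therefore no larger than this test can tell from the spread of other probe sets, and with 3 arrays a miss does not show that the arrays were alike.

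With arrays scaled to a common median, the subunits did not all deviate in the same direction on any array. Relative to its mean over the arrays, log2 signal on array 2 was higher for Atp1b2 by 0.53, for Atp2a2 by 0.19 and for Atp2a3 by 0.08. On the same array the deviation was -0.38 for Atp1b1, -0.13 for Atp1b3 and -0.10 for Atp2b2. On array 3 it was 0.37 for Atp1b1 and 0.14 for Atp1b3, against -0.40 for Atp1b2 and -0.30 for Atp2b2. The order of Atp1b1 and Atp1b3, array 3 over 1 over 2, was also that of 21.5% of all measured probe sets, and the order of Atp1b2 and Atp2a3, array 2 over 1 over 3, that of 19.4%.

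Scaling decides part of these directions. The signal of the 9 hybridisation controls, bacterial and phage transcripts added at fixed amounts, had a geometric mean of 6659, 4578 and 7332 on arrays 1, 2 and 3. Scaling to them moved all probe sets by -0.13, 0.41 and -0.27 on the log2 scale. With that scaling the deviations on array 2 were 0.04 for Atp1b1, 0.29 for Atp1b3 and 0.32 for Atp2b2, so all 3 turned positive, while Atp1b2 gave 0.95, Atp2a2 0.61 and Atp2a3 0.50. The log2 range became 0.18 for Atp1b1, 0.46 for Atp1b3, 1.66 for Atp1b2, 0.93 for Atp2b2, 1.00 for Atp2a2 and 0.88 for Atp2a3. With this scaling Atp1b1 was the steadiest β subunit and the SERCA genes lost their narrow range.

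**Figure D3:**
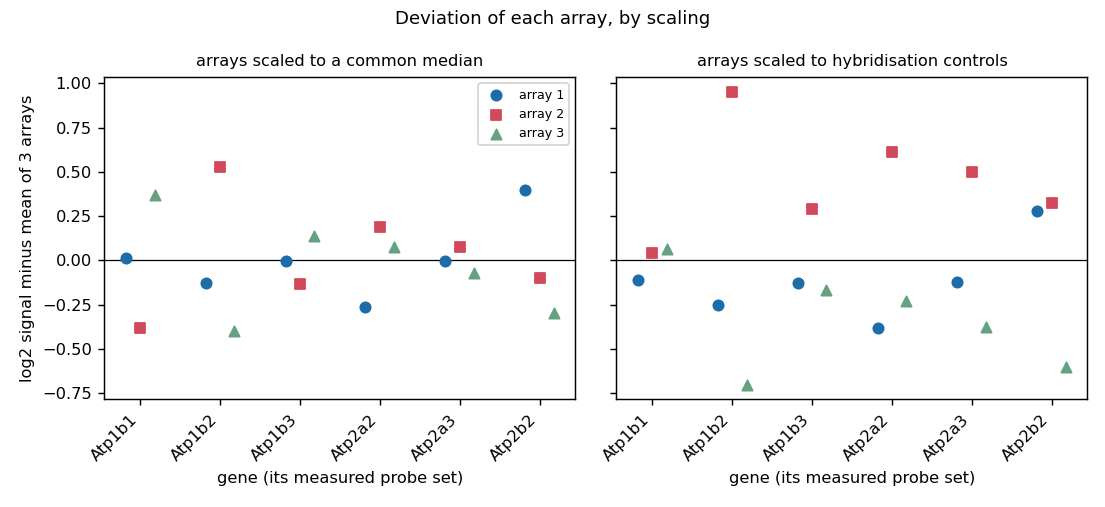
Log2 signal on each array minus the mean of the 3 arrays for the measured probe set of each gene, with arrays scaled to a common median (left) or to the hybridisation controls (right). Array 2 is 0.53 above the mean for Atp1b2 and -0.38 from it for Atp1b1 on the left, and 0.95 and 0.04 on the right.

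The difference between 2 subunits within an array does not change when a whole array is multiplied by a factor, as both scalings above do. It was formed for all 15 pairs of the 6 measured probe sets and centred on its mean over the arrays. The Atp1b1 to Atp1b2 difference moved most, with deviations of 0.14, -0.91 and 0.77 on arrays 1, 2 and 3. This is a log2 range of 1.68, or 3.20-fold. Over all pairs of measured probe sets on the array, 8.82% had a larger range, and this pair was singled out after its values were seen. Its range was 0.63 without array 2, 1.05 without array 3 and 1.68 without array 1.

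Atp1b2 also parted from Atp1b3, with deviations of -0.12, 0.66 and -0.54 for Atp1b2 minus Atp1b3 and a log2 range of 1.20. Atp1b1 and Atp1b3 kept closer, with a range of 0.48, or 1.39-fold. The closest pair was that of the SERCA genes Atp2a2 and Atp2a3, at 0.41, or 1.33-fold. Atp2b2 differed from Atp2a2 with a range of 1.04, from Atp1b1 with 1.06 and from Atp1b2 with 1.16. In all, 5 of the 15 pairs ranged over 1, beside 30.4% of all pairs of measured probe sets, so the count is near the background. After quantile normalization or cyclic loess, which bend the scale within an array, 4 did. With any 1 array left out, 2 of 15 pairs did, but a range over 2 arrays is a single difference and tends to be smaller for any pair. The share over all pairs was not computed for these settings. Pairs that share a gene are not independent, and no test was made on them.

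**Figure D4:**
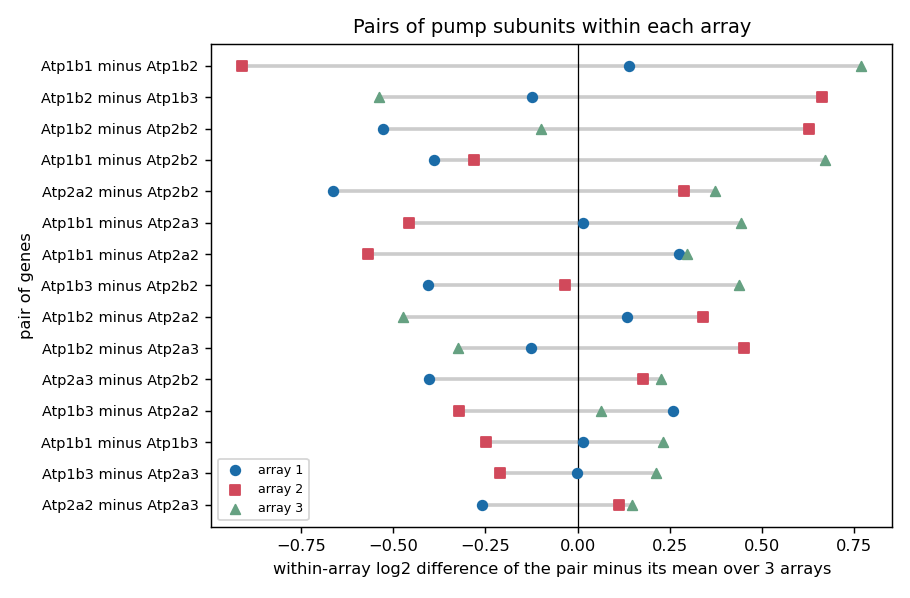
Within-array log2 difference of each of the 15 pairs of measured pump probe sets, minus its mean over the 3 arrays (horizontal axis), ordered by range, with 1 point per array and a grey bar for the range. Atp1b1 minus Atp1b2 spans 1.68, from -0.91 on array 2 to 0.77 on array 3, and the SERCA pair spans 0.41.

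Other measures also differed between the arrays on which Atp1b2 was high and low. All 8 astrocyte markers that had a probe set passed the threshold on each array. Their summed signal was 43188, 47866 and 38218, in the order shared by Atp1b2 and Atp2a3. That order rested on the apolipoprotein gene Apoe, without which the sums were 22203, 21072 and 20255, and 3 of the 8 genes showed it themselves. The summed signal of 6 choroid plexus and ependyma markers, of which 2 were above threshold on all arrays, was 3879, 7580.2 and 2360.1, also in that order, which 4 of the 6 genes showed themselves and which held with any 1 of them left out. Transthyretin (Ttr), the defining product of the choroid plexus, gave 1334, 4257 and 94.2. The ratio of 3' to 5' signal, a sign of RNA integrity, was 3.99, 1.21 and 3.94 for Gapdh and 2.57, 1.86 and 3.50 for Actb. The part of these in the Atp1b2 and Atp2a3 signals was not tested.

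Sums of other marker lists followed some of the remaining pump genes. In the order of Atp1b1 and Atp1b3, the 5 excitatory neuron markers summed to 8756, 6958 and 10117, with 4 above threshold on all arrays, Camk2a on none, and 2 of the 5 in that order themselves. The order held with any 1 of these genes left out, and the hybridisation controls shared it. So did the 3' to 5' ratio of Actb given above, whereas that of Gapdh was lowest on array 2 but highest on array 1. The sums of the interneuron list (22391, 21917 and 27640), of the dentate granule list (1913, 1845 and 1999) and of the endothelial list given above ran the same way, but each lost that order without 1 gene, namely Slc32a1, Calb1 and Pecam1. Of the 6 interneuron, 4 dentate granule and 5 endothelial markers, 1, 2 and 2 followed the order themselves, and 5, 2 and 1 passed the threshold on all arrays. In the order of Atp2a2, the 5 CA3 and CA2 markers, of which 3 passed, summed to 2147, 6695 and 2738. That order was lost without Nnat, and 1 of the 5 genes showed it itself. The 5 oligodendrocyte markers, of which 4 passed, summed to 21093, 22460.5 and 21626. That order was lost without Mbp, and 2 of the 5 genes showed it themselves. Mobp entered this sum at its brightest probe set, with 12546.5, 11531 and 12530. Its other probe sets also passed on each array but ran in the order of Atp1b2 and Atp2a3, with 99047_at at 1843, 4814 and 1495.5. The part of these cells, or of RNA integrity, in the pump signals was not tested. None of the full lists summed highest on array 1, next on array 2 and lowest on array 3, the order of Atp2b2. The 4 CA1 pyramidal markers with a probe set, Wfs1, Pou3f1, Dcn and Man1a, passed the threshold on each array, with sums of 7741, 6658 and 7080.4.

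Genes with the array pattern of Atp1b2, the subunit with the widest range, were sought among 4875 other measured genes, by the root mean square difference of centred log2 signals over 3 arrays. The nearest outside the gene lists used here were Dcps at 0.01, with signals of 186, 290.2 and 148, Nudc at 0.02, with 179, 278 and 146, and Cdc34 at 0.02, with 379, 618.5 and 311. Within 0.15 lay 206 genes, or 4.23%. Likeness over 3 arrays is thus common, and nothing is read from these names.

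Partners of the pumps and other calcium handling genes were measured in part. Of 48 listed genes 28 had a probe set. Each was taken at its brightest, and 18 passed the threshold on every array and 6 on none. Taking the brightest probe set favours passing, and the share of all genes that pass in this way was not computed. The median SD of the 21 measured genes was 0.38, beside 0.25 over all measured probe sets. A log2 range above 1 was reached by 4 of them, Fxyd2, Ryr3, S100a1 and Atp2c1, beside 12.1% of all measured probe sets. The limma variance test called 0 of the 21 over all measured probe sets, and 2, Atp2c1 and S100a1, had an unadjusted p under 0.05, beside 5.21% overall.

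Among the FXYD regulators, Fxyd1 (phospholemman) gave 1809, 1895.5 and 1487, a mean of 1730.5 ± 215. Fxyd7, a brain form, gave 363, 601 and 316, a mean of 427 ± 153, highest on array 2 and lowest on array 3 like Atp1b2. Its root mean square difference from Atp1b2 was 0.05, and 17 of the 4875 genes lay nearer. Fxyd7 was the nearest of all measured pump subunits and partners, so this rank is the best of many and nothing is read from it. Fxyd2, the γ subunit best known from kidney, gave 255, 46.8 and 248, which set array 2 below both others, and its array 2 signal lay under the floor. Its log2 range of 2.42 is therefore limited by the floor, and its adjusted p in limma was 0.949. Fxyd3 and Fxyd5 were under threshold on each array, with means of 37.0 ± 31.0 and 50.8 ± 44.1.

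The calcium handling genes with the widest ranges did not follow a common order. The ryanodine receptor gene Ryr3, a calcium release channel, gave 495, 210.2 and 395 with its brightest probe set, but 312, 411 and 294 with its other, so that array 2 was lowest with one and highest with the other. Atp2c1, a pump that loads the Golgi with calcium and manganese, gave 1300.1, 666 and 1318. S100a1, a calcium-binding regulator of SERCA and ryanodine receptors, gave 534, 1193 and 633.5 with 95453_f_at, a probe set of the _f_ class. Its other probe sets were under threshold on each array, with 69.2, 81.9 and 66.6 for 95452_i_at and 22.8, 17.0 and 62.7 for 95454_at. The oxidoreductase gene Pdia3 gave 232, 254 and 442, and the inositol trisphosphate receptor gene Itpr2 gave 1312, 690.2 and 1135 with its brightest probe set. Atp2c1 and Itpr2 also had probe sets under threshold on each array. Array 2 was thus lowest for Atp2c1 and Itpr2 and highest for S100a1, and each of these 5 had an adjusted limma p of at least 0.899.

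**Figure D5:**
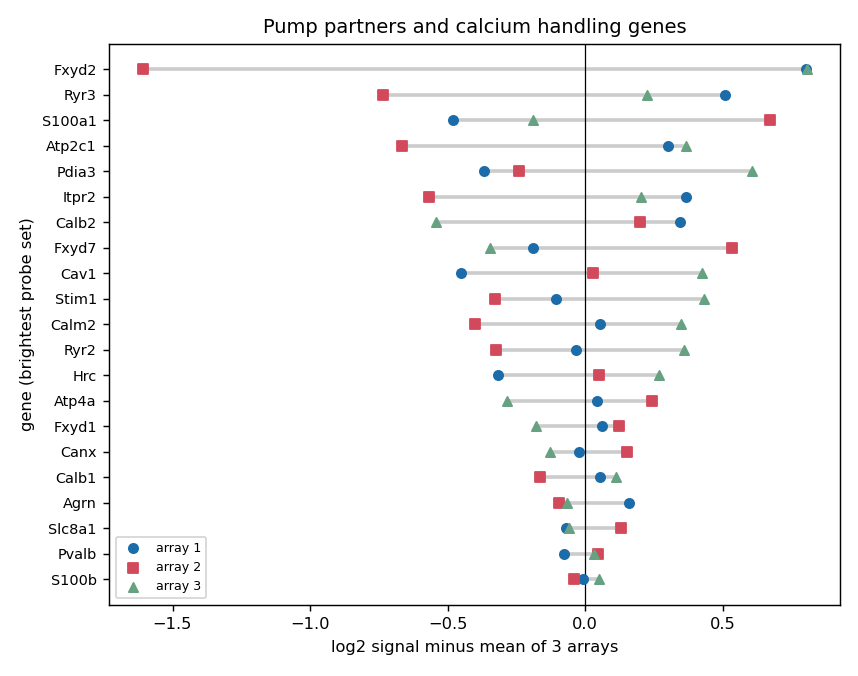
Log2 signal on each array minus the mean of the 3 arrays (horizontal axis) for the 21 measured pump partners and calcium handling genes, each at its brightest probe set, ordered by range. Fxyd2 spans 2.42 with array 2 held at the floor, and the calcium-binding protein gene S100b spans 0.09.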

How the data were processed

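The authors deposited signal intensities on a linear scale, 1 for each probe set on each array, and the mean trimmed by 2% at each end was 500.3 on each array. How they were scaled and background-corrected, and by which program, is not given in the sources used here. The 12488 probe sets included 66 controls, and 396 carried several symbols and were not named, none of them naming a pump subunit. Gene symbols follow GRCm38.p6, matched by Entrez identifier.

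Arrays were scaled to a common median over measured probe sets (factors 0.991, 0.987 and 1.02). The variance of each of 6218 probe sets was set against limma's robust intensity-dependent prior (limma 3.58.1, R 4.3.3; tails winsorised at 0.05 and 0.1), with upper-tail F probabilities, Benjamini-Hochberg adjustment and a threshold of 0.05. The test was checked on simulated data, where recovery was required only for shifts far larger than the ranges of the pump probe sets. That check does not show that differences of their size would be called.

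The members and lists were chosen with earlier results of these data known. The genes named are all members, all FXYD genes with a probe set, the 6 partners with the largest range, the 3 genes most like Atp1b2, and markers. Alternatives varied the scaling, floor, threshold, probe set suffix, prior and arrays. The number of arrays limits precision. Some genes of the partner list are not reported here.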

Additional observations from a re-analysis of the deposited data

How the results depend on the processing

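The array order of each measured pump probe set was the same under every alternative with 3 arrays that kept it, except that scaling to the hybridisation controls, chosen after seeing the data, changed it for Atp1b1, Atp1b3 and Atp2b2. That scaling put 1 of 6 probe sets over a 2-fold range, beside 31.2% of all measured probe sets, with a median SD of 0.49, beside 0.40. With the threshold at the 75th percentile, 3 of 10 probe sets passed on all arrays, and the share of all probe sets passing there was not computed. Pairs ranging over 1, a count added after seeing the data, were 8 of 21 at the 25th percentile, 2 of 6 at the 75th, 13 of 45 with no threshold, 2 of 6 with the plain suffix alone, and from 2 to 2 of 15 with 1 array left out. These settings change how many probe sets or arrays enter, and the share over all pairs was not computed for them. With no threshold the variance test called 2 of 10 probe sets, beside 11.1% of all, namely the dim 160500_at of Atp1b1 and 93404_g_at of Atp2a3. Quantile normalization, cyclic loess, no further scaling, the other floors and the prior without the robust step left these counts within 1.5 times. Counting above threshold cannot be done without a threshold. No paired analysis was possible because there is only 1 group. Signals near 47.5 carry no usable differences.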
